A study of Mus musculus with 6 samples.

Results

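The 7 genes described here encode proteins that act close to the IL-15 receptor: the kinase gene Jak3, the transcription factor genes Stat3 and Stat5a, the kinase gene Syk, the adaptor genes Cbl and Crkl, and Ptpn11, which encodes the phosphatase SHP-2. They were chosen by name from a table of 2652 genes, and all 7 were found in it. The table compares RNA pulled down with an antibody to METTL3 (RNA immunoprecipitation, METTL3-RIP, 3 libraries) with RNA of the lysate before the pull-down (input, 3 libraries). Natural killer (NK) cells sorted from the spleens of mice that the study calls wild-type (WT), on a C57BL/6 background, were the source of all 6 libraries. For the purification of NK cells the study names Mettl3-floxed mice beside those that lack Mettl3 in NK cells. Whether the WT mice here were floxed is not given in the sources used here. A month earlier the mice had been given pLIVE-IL-15, a plasmid that expresses IL-15, by hydrodynamic injection, as the study's methods state, so METTL3-RIP and input cells shared this treatment. The cells were lysed, the smaller portion of the lysate was kept as input and the larger portion was incubated with the antibody. The mice of the study were between 6 and 10 weeks old, and whether animals were pooled is not given in the sources used here. Nothing says that the libraries of a group came from separate animals, so p-values measure only the spread between libraries, which may be technical. No pull-down with a control antibody was analysed here.

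IL-15 keeps NK cells alive and drives them to divide. It binds a receptor whose β chain works with JAK1 and whose common γ chain works with JAK3. The activated kinases phosphorylate the receptor and STAT proteins, which then enter the nucleus and switch on target genes, while adaptors and SHP-2 link the receptor to the RAS-ERK and PI3K-AKT pathways. METTL3 is the enzyme that methylates adenosines of messenger RNA to N6-methyladenosine (m6A), most often at GGAC followed by A, C or T and often near stop codons. The comparison addressed which transcripts of this pathway were recovered with METTL3.

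The principal transcripts of the 7 genes were first searched for GGACT on the transcript strand, since the antibody target writes m6A at motifs of this kind. Transcripts were taken from GENCODE M21 on GRCm38, and a match is a description and not a methylated site. GGACT lay within 200 bases of the stop codon in 3 of the 7 transcripts, those of Stat5a, Syk and Ptpn11, against 36.3% of all 21580 protein-coding genes and 41.2% of the 1883 protein-coding genes of the table. The match nearest the stop codon is shown for these 3, and for Stat3 because it was the only match in that transcript. Each run is 25 bases, 5′ to 3′ on the transcript strand, with GGACT in capitals.
Stat5a (chr11:100883992-100884016, plus strand, 3′ UTR): cctgaacgctGGACTccatgcttct
Syk (chr13:52643133-52645727, plus strand, coding): aacctgtgctGGACTtacgatgtgg
Ptpn11 (chr5:121134045-121134069, minus strand, 3′ UTR): ggcactggctGGACTgcctcttgag
Stat3 (chr11:100888251-100888275, minus strand, 3′ UTR): atagaagctaGGACTaagcccagag

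Distances are counted from the middle base of the stop codon to the A of GGACT. The run of Stat5a also holds the stop codon, and its match lay at a distance of 9 bases. In Ptpn11 the nearest match lay 112 bases past the stop codon and in Stat3 443 bases past it. The match of Syk was coding, and its run crosses an exon junction, so an intron lies between the coordinates given. In Cbl the nearest match lay 324 bases past the stop codon in the 3′ UTR. In Jak3 and Crkl the nearest matches were coding, at positions -378 and -771 relative to the stop codon.

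The transcripts differed widely in how this motif was laid out. Jak3 had 10 matches in 4019 bases, of which 9 were coding and 0 lay in its 3′ UTR of 419 bases. That was 2.49 matches per kilobase, more than in 97.4% of the protein-coding genes of the table. Stat3 was at the other end, with 1 match in 4516 bases, or 0.221 per kilobase, above only 2.92% of those genes. Cbl had 11 matches, 8 of them in a 3′ UTR of 8469 bases, which was longer than that of 99.2% of the protein-coding genes of the table. Syk and Ptpn11 had 7 matches each, Crkl 4 and Stat5a 3. The median over the 7 was 0.967 matches per kilobase, against 1.13 in the protein-coding genes of the table and 1.02 in all protein-coding genes. Their median 3′ UTR was 2997 bases, against 1328 in the table and 781 in all protein-coding genes. With GGACA and GGACC included, 71.4% of the 7 had a match within 200 bases of the stop codon, against 83.4% in the table and 73.7% in all protein-coding genes. Neither share set these 7 transcripts apart from the table.

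**Figure D1:**
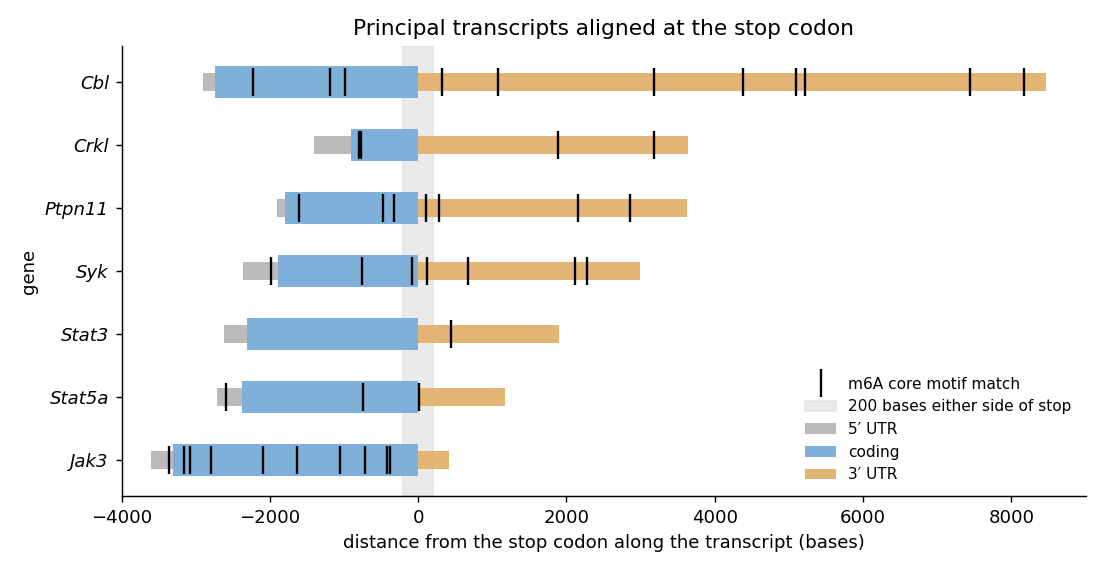
Principal transcripts of the 7 genes drawn to scale and aligned at the stop codon, with distance along the transcript in bases on the x axis, UTRs as thin bars, the coding part as a thick bar and each GGACT match as a tick. The 10 matches of Jak3 lie before the stop codon, 8 of the 11 of Cbl lie in its long 3′ UTR, and only Stat5a, Syk and Ptpn11 have a match inside the shaded 200 bases either side of the stop codon.

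Levels were then compared between METTL3-RIP and input. Values are in RPKM, the reads of a gene per kilobase of its exons and divided by the library total in megareads. For 6 of the 7 genes the length joined the exons of all annotated transcripts. It was 2.11 times the principal transcript in Stat3, 1.35 times in Ptpn11 and 1.09 times in Cbl. Orders between genes therefore hold for RPKM and can change with another length. All 7 genes were higher in METTL3-RIP, by 9.51-fold (Jak3) to 15.8-fold (Cbl) as a ratio of group means, and in each of them every METTL3-RIP value lay above every input value. This direction was fixed by the choice of the table, in which all 2652 genes had a higher mean in METTL3-RIP, the lowest by 9.14-fold, and 99.8% had no overlap between the groups. It is therefore given as a description. The ratio sets the share of reads in pulled-down RNA against that in the lysate, so it is not a change in expression. For the level in input itself, more cells with a transcript and more of it per cell cannot be told apart. The library totals recovered from the RPKM values were 9401509 to 11809744 reads in METTL3-RIP and 14710607 to 15992386 reads in input. Genes of the table held 13.3% to 15.5% of METTL3-RIP reads and 0.816% to 1.05% of input reads, so input values rest on few reads.

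Of the kinase and transcription factor genes at the receptor, Jak3 encodes the kinase bound to the common γ chain. METTL3-RIP replicates 1, 2 and 3 held it at 5.52, 4.96 and 4.13 RPKM, and the input replicates at 0.687, 0.596 and 0.254 RPKM. Input replicate 3 was the lowest, with 20 reads against 56 and 51, and the METTL3-RIP libraries had 255 to 278 reads. The mean was 4.87 ± 0.702 in METTL3-RIP and 0.512 ± 0.228 in input (SD, n = 3), so input varied by 44.6% of its mean, the most among the 7 genes.

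Stat5a encodes a STAT that IL-15 activates in lymphocytes. It had the lowest level of the 7 in both groups, with an RPKM of 2.13, 2.14 and 2.02 in METTL3-RIP, against 0.221, 0.105 and 0.191 in input. Its METTL3-RIP values varied by 3.31% of their mean, while input, with 24, 12 and 20 reads, varied by 34.8%. Stat3 encodes a related factor that other cytokines of NK cells, such as IL-21, also use. It stood at 11.5, 14.0 and 10.3 RPKM in the METTL3-RIP libraries, against 0.979, 1.17 and 0.942 RPKM in those of input, and replicate 2 was the highest in both groups. Stat3 thus stood at 11.9 ± 1.91 against 2.10 ± 0.0695 for Stat5a in METTL3-RIP, and at 1.03 ± 0.125 against 0.172 ± 0.0600 in input (RPKM, SD, n = 3), with no overlap between the genes in either group.

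Syk encodes a tyrosine kinase that signals from receptors carrying activation motifs and that has been linked to the IL-15 receptor β chain. It was the most abundant of the 7 in METTL3-RIP, with an RPKM of 24.1, 27.1 and 23.2, and had 1.90, 1.64 and 1.49 in input. It ranked 176 of 2652 by mean level in METTL3-RIP and 194 in input. Reads on Syk numbered 2119 to 2560 in METTL3-RIP and 205 to 271 in input, the most among the 7 genes.

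Cbl encodes a ubiquitin ligase and adaptor that turns down tyrosine kinase signals. The METTL3-RIP libraries gave 14.3, 15.01 and 13.3 RPKM for Cbl, and the input libraries 0.819, 0.922 and 0.947 RPKM. Input varied by only 7.56% of its mean, the least among the 7, and its ratio of 15.8 was the highest of the 7, still exceeded by 42.5% of table genes with an input read. Crkl encodes an adaptor that joins CBL and other phosphorylated proteins to exchange factors of small GTPases. Its values were 6.31, 6.30 and 6.05 RPKM in METTL3-RIP, against 0.646, 0.518 and 0.387 RPKM in input, a ratio of 12.03.

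Ptpn11 encodes SHP-2, a phosphatase that, unlike its relative SHP-1, mostly promotes signalling to ERK. Ptpn11 was measured at 13.7, 14.1 and 12.5 RPKM in METTL3-RIP libraries and at 1.67, 1.51 and 1.05 RPKM in input libraries. Its mean was 13.4 ± 0.795 in METTL3-RIP and 1.41 ± 0.322 in input (SD, n = 3). Its values overlapped those of Cbl and Stat3 in METTL3-RIP and those of Syk and Stat3 in input.

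**Figure D2:**
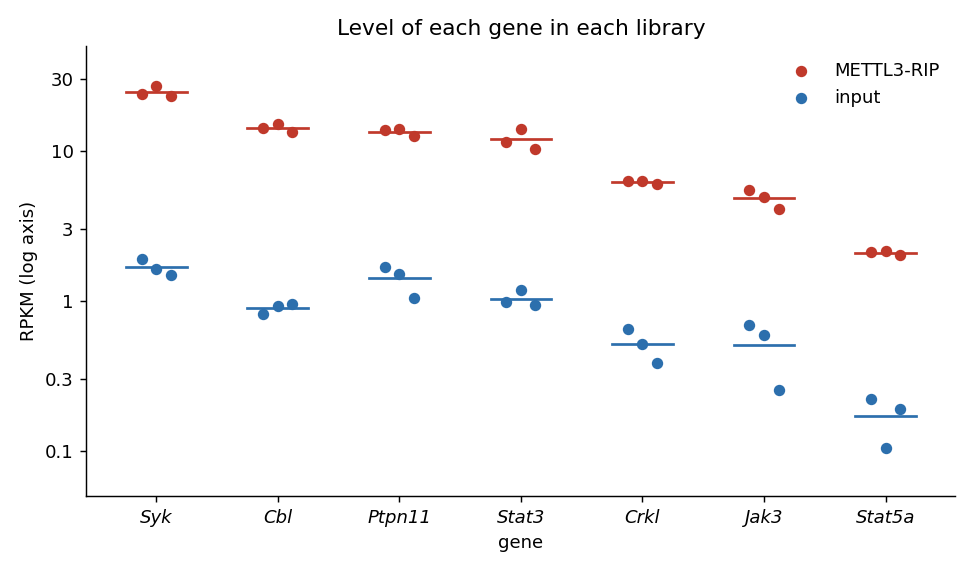
RPKM of the 7 genes in each of the 6 libraries on a log axis, with METTL3-RIP in red, input in blue, points for libraries in the order of replicates 1 to 3 and a line at the group mean. The METTL3-RIP values span 2.02 (Stat5a) to 27.1 (Syk) and the input values 0.105 (Stat5a) to 1.90 (Syk), with no overlap between the groups within any gene.

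The order of the genes by RPKM was similar but not the same in both groups. In METTL3-RIP, Syk was followed by Cbl, Ptpn11, Stat3, Crkl, Jak3 and Stat5a. Cbl, Ptpn11 and Stat3 overlapped with their neighbours, whereas the steps from Syk to Cbl, Stat3 to Crkl, Crkl to Jak3 and Jak3 to Stat5a did not. In input the order was Syk, Ptpn11, Stat3, Cbl, Crkl, Jak3 and Stat5a, and only the steps from Cbl to Crkl and from Jak3 to Stat5a were free of overlap. Cbl thus stood before Ptpn11 and Stat3 in METTL3-RIP and after both in input.

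The difference between the groups was fitted with limma on log2(RPKM + 1), a scale on which low genes appear to change less than they do. All 7 genes passed the threshold of an adjusted p of 0.05, as did 99.9% of the table, so the count says nothing particular about these genes. The log2 fold change was 3.27 for Syk, 3.0 for Cbl, 2.66 for Stat3, 2.59 for Ptpn11, 2.25 for Crkl, 1.96 for Jak3 and 1.40 for Stat5a, with SE from 0.080 (Stat5a) to 0.14 (Jak3). The median of the 7 was 2.59, against 1.72 over the table. On this scale Stat5a had the smallest change with 1 added to an input of 0.172, while its ratio of means, 12.2, lay between those of Crkl and Syk. The ratio of means has no such offset, and its median over the 7 was 12.03, against 14.4 in the 2487 table genes with an input read and 12.3 in the 1214 table genes with at least 50 input reads. Each library was then centred on the median of the table, which moved the median log2 fold change of all genes from 1.72 to -0.036. With this, 5 of the 7, Ptpn11 among them, were higher past the threshold and Stat5a was lower. Jak3 was not past it. Over the table, 39.4% of genes were called higher and 42.2% lower in this setting. After quantile normalization only Ptpn11 passed, as lower, with 6.41% of the table called higher and 5.73% lower.

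A second question was whether a gene rose more or less between input and METTL3-RIP than the other genes of the table. The choice of the table bounds this comparison on the low side, since it holds no ratio of means below 9.14. Reads recovered from RPKM were scaled by the median of ratios over table genes with a read in every library and fitted with limma voom. Ptpn11 was the only 1 of the 7 past the threshold, and it was recovered less than the middle of the table. Its log2 difference was -0.51 (SE 0.12, adjusted p = 0.019, limma), or 0.703-fold with a 95% interval of 0.584 to 0.845. Over the table, 2.71% of genes were called lower and 9.69% higher, and the median log2 difference was 0.13.

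The values behind this call were 8.41, 8.36 and 8.44 for Ptpn11 in METTL3-RIP, against 9.01, 8.98 and 8.70 in input, as log2 reads after that scaling. The groups did not overlap for Ptpn11, nor for Syk, which was not called. Syk was at 9.54, 9.63 and 9.65 in METTL3-RIP, against 9.51, 9.42 and 9.52 in input. The share of table genes without overlap on this scale was not computed, so the lack of overlap is a description only. The call of Ptpn11 was lost without input replicate 1 or input replicate 2. Without input replicate 1 the log2 difference was -0.47 (adjusted p = 0.086, limma) and without input replicate 2 it was -0.46 (adjusted p = 0.091, limma), while without each of the other 4 libraries in turn the adjusted p was at most 0.043 (limma). In a fit on centred log2(RPKM + 0.1), the difference of Ptpn11 was -0.26 (adjusted p = 0.18, limma), and Syk passed as higher by 0.37 (adjusted p = 0.035, limma). In that fit the split over the table turned, with 11.2% of genes called higher and 19.9% lower. On centred log2(RPKM + 1) the sign of Ptpn11 turned as well, to 0.83 higher (adjusted p = 1.4e-04, limma). There 39.4% of the table was called higher and 42.2% lower, so the direction for Ptpn11 depended on the scale. This is the scale on which low genes appear to change less than they do. The median input level was 0.190 RPKM over the table, against 1.41 for Ptpn11. In the other fits that removed the shift of the table Ptpn11 was lower. It was at -0.44 with at least 50 input reads and at -0.41 after quantile normalization. Scaling by the sum of reads gave -0.67 for Ptpn11 (adjusted p = 0.0040, limma) and moved the split over the table from 257 higher and 72 lower to 189 higher and 173 lower.

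For the other 6 genes the interval of the difference included no change, and they were not shown to be recovered like the rest of the table. Jak3 was almost as low as Ptpn11, at a log2 difference of -0.48, but its 95% interval ran from -1.04 to 0.080 (adjusted p = 0.26, limma). It moved to -0.78 without input replicate 3, where Ptpn11 was at -0.60, and to -0.30 without input replicate 1. Stat3 was at -0.24 with an interval of -0.54 to 0.064, and Crkl at -0.18 with an interval of -0.69 to 0.32. Stat5a was at -0.10 with an interval of -0.79 to 0.59, and it changed sign without input replicate 1 and without input replicate 3. Syk was at 0.12 with an interval of -0.095 to 0.34, and it changed sign under scaling by the sum of reads. Cbl was the highest at 0.24, with an interval of -0.045 to 0.52, but without input replicate 1 it fell to 0.070, below Syk at 0.13. Jak3, with the most GGACT per kilobase of the 7, and Stat3, with the fewest, were both at negative values. Both intervals included no change, and a relation of GGACT to recovery was not tested. The widest intervals were those of Stat5a, Jak3 and Crkl, which had 56, 127 and 92 reads over the 3 input libraries, against 453 to 721 in the other 4 genes. The reads of Crkl rest on an inferred length. Jak3 and Ptpn11, with ratios of 9.51 and 9.52, also lay close to that lowest ratio of the table.

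**Figure D3:**
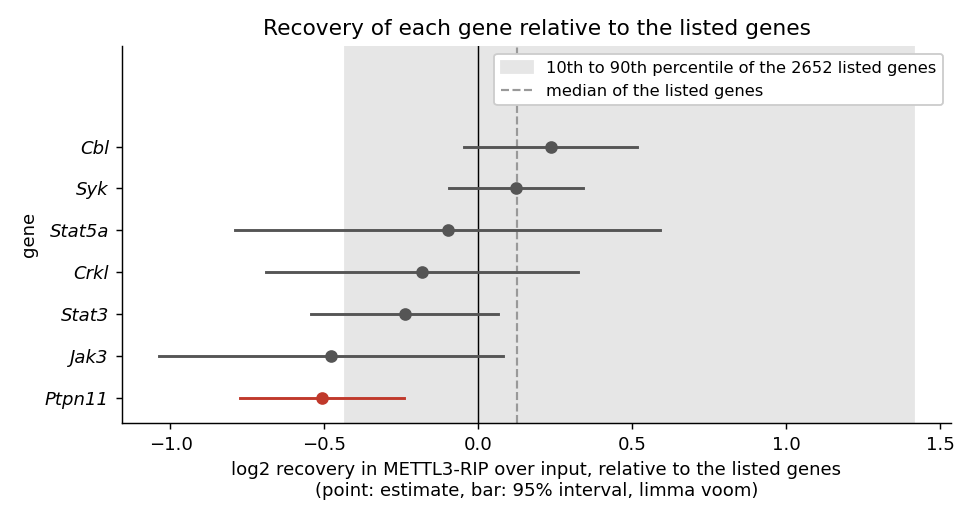
Log2 recovery of each gene in METTL3-RIP over input relative to the genes of the table, with points for the estimate and bars for the 95% interval (limma voom), Ptpn11 in red as past the threshold, and the 10th to 90th percentile of the 2652 genes shaded. Ptpn11 at -0.51 is the only gene whose interval excludes 0, and the shaded range runs from -0.43 to 1.41.

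The ratio of a pair of genes within a library does not depend on any scaling between libraries. Of the 21 pairs among the 7 genes, 4 (19.0%) had METTL3-RIP and input ratios that did not overlap, against 36.0% of the 736291 pairs of table genes with at least 50 input reads each. The share among the 7 genes was thus below that of the table, with each gene entering 6 pairs. With 3 libraries against 3, an exact two-sided permutation test cannot give a p below 0.1, so these ratios are described only. Ptpn11 was in 3 of the 4 pairs, each time as the gene recovered less. They were 3 of its 6 pairs, and all use the same Ptpn11 values, so they are not independent of each other or of the fit above.

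Cbl over Ptpn11 was 1.04, 1.07 and 1.06 in METTL3-RIP, against 0.489, 0.610 and 0.90 in input. In RPKM, Cbl was therefore slightly above Ptpn11 in every METTL3-RIP library and below it in every input library. The ratio of Syk to Ptpn11 was 1.75, 1.93 and 1.85 in METTL3-RIP, against 1.14, 1.08 and 1.41 in input, with Syk ahead in both. Crkl over Ptpn11 was 0.459, 0.448 and 0.482 in METTL3-RIP, against 0.386, 0.343 and 0.368 in input, the smallest shift of the 3. The fourth pair was Cbl over Stat3, at 1.24, 1.07 and 1.29 in METTL3-RIP, against 0.837, 0.785 and 1.01 in input. Stat3, Jak3 and Stat5a each overlapped between the groups when set over Ptpn11.

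**Figure D4:**
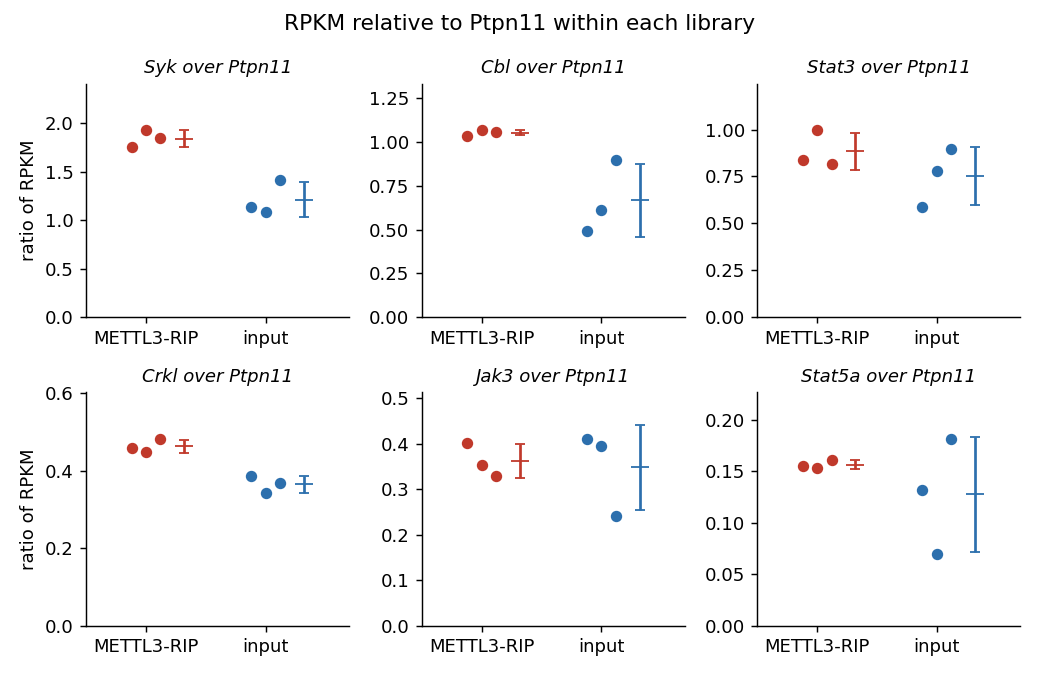
Ratio of the RPKM of 6 genes to that of Ptpn11 within each library, in METTL3-RIP (red) and input (blue), with points for the 3 libraries of a group and a bar for the mean and SD. Syk, Cbl and Crkl over Ptpn11 are higher in every METTL3-RIP library than in any input library, whereas Stat3, Jak3 and Stat5a overlap.

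Other genes of the pathway were examined by lists, chosen with earlier results of these data known. Genes absent from the table were not analysed here, so the lists describe which members were in it. The table held 1883 of all 21580 protein-coding genes with a complete transcript. Of 15 receptor and JAK-STAT family genes, 5 were in the table, and all 5 were higher in METTL3-RIP (limma), as were 99.9% of the table. Beside Jak3, Stat3 and Stat5a these were Tyk2, a kinase of the interleukin-12 and interferon receptors, at 13.2 ± 1.55 against 0.782 ± 0.0619 RPKM, and Stat2, an interferon-activated STAT, at 3.92 ± 0.349 against 0.395 ± 0.0926 RPKM (SD, n = 3). None of the 5 differed from the middle of the table past the threshold (limma voom), with 0 of the 5 at an unadjusted p under 0.05 against 27.1% of the table, and their median log2 fold change was 1.96.

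Of 23 tyrosine kinases and adaptors, 6 were in the table. The additional genes were Rapgef1, the exchange factor that CRKL carries, Plcg1 and Plcg2, phospholipases activated by tyrosine kinases. Plcg2 was the highest of these, at 39.4 ± 3.31 RPKM in METTL3-RIP and 3.87 ± 0.221 in input. In the main voom fit it was called lower than the middle of the table, as were 2.71% of all genes (log2 difference -0.42, SE 0.10, adjusted p = 0.019, limma). Whether this call holds in the other fits was not examined. Rapgef1 was at 25.02 ± 3.21 against 1.75 ± 0.487 RPKM. Plcg1 was at 0.833 ± 0.0700 against 0.0335 ± 0.0177 RPKM, the latter from 2, 4 and 6 reads. The median log2 fold change of the 6 was 3.03.

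Of 14 phosphatases and inhibitors, 3 were in the table. With Ptpn11 these were Inpp5d, which encodes the lipid phosphatase SHIP1, at 17.5 ± 1.66 against 1.49 ± 0.450 RPKM, and Sh2b3, an adaptor that restrains JAK signalling, at 5.33 ± 1.22 against 0.380 ± 0.175 RPKM. Neither differed from the middle of the table past the threshold. Of the 49 IL-15 receptor pathway genes listed by the study, 12 were in the table, 7 of them the genes described here. Relative to the table, Mtor, the growth kinase, was recovered more (log2 difference 0.86, SE 0.25, adjusted p = 0.041, limma), and Cflar, an inhibitor of caspase activation, less (-0.50, SE 0.15, adjusted p = 0.046, limma). Irs2, Pik3ca and Pik3cg were between -0.48 and 0.33 and did not pass. The median log2 fold change of the 12 was 2.18.

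The labelled cell type could not be checked, because 0 of 10 NK cell marker genes were in the table. The same held for 6 T cell, 6 B cell and 6 myeloid cell marker genes, so the part of other spleen cells, of which B cells and myeloid cells also express Syk, was not tested. The NK cells were sorted by flow cytometry, as the methods give it, and no value here measures how many other cells remained.

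The table gene closest to each of the 7 in its values over the 6 libraries was found by Euclidean distance on log2(RPKM + 1). Cbl had the closest match, Ppp1r16b, at a distance of 0.101, followed by Stat5a with Depdc5 at 0.146 and Crkl with Atxn1l at 0.162. Jak3 was nearest to Taf5l (0.171), Syk to Ubr2 (0.172), Ptpn11 to Sfswap (0.191) and Stat3 to Fxr2 (0.206). The gene nearest to each was thus another gene of the table and in no case one of the 7.

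The genes lie on 6 chromosomes in GRCm38, all as protein-coding genes of GENCODE M21. Jak3 lies at chr8:71676296-71690575 on the plus strand, Syk at chr13:52583173-52648792 (plus), Cbl at chr9:44142976-44234049 (minus), Crkl at chr16:17451987-17487434 (plus) and Ptpn11 at chr5:121130533-121191397 (minus). Stat5a (chr11:100859351-100885169, plus) and Stat3 (chr11:100885098-100939540, minus) are neighbours that meet tail to tail, and 72 bases of their exons overlap on opposite strands. As the use of strand in counting is not given in the sources used here, reads in these bases cannot be assigned to either gene. Jak3 shares 404 exonic bases (7.55%) with Insl3 on the same strand.

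Reads may also be split with similar sequences elsewhere. Of the exonic runs of 31 bases, 22.6% of those of Stat5a and 21.4% of those of Cbl occurred more than once in the genome. Repeats within the same gene were counted too. For Stat5a 10.99% occurred in the exons of its paralog Stat5b. With runs of 100 bases, chosen after seeing the data, these shares were 8.65%, 0.893% and 1.51%, so repeated sequence was most frequent in Stat5a by both lengths. In Jak3, Syk and Crkl, 0 runs of 100 bases were repeated. Jak3, Syk, Cbl, Crkl and Ptpn11 shared 0 runs of 31 bases with the exons of their close relatives (Jak1, Jak2 and Tyk2 for Jak3, Zap70 for Syk, Cblb for Cbl, Crk for Crkl and Ptpn6 for Ptpn11).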

How the data were processed

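METTL3-RIP-seq was analysed in 3 METTL3-RIP and 3 input libraries, grouped by their titles. Per the submitters' processing notes and the methods of the study, reads were mapped to GRCm38 with STAR 2.5.3a at default parameters, and the notes also name Trimmomatic 0.36, bedtools 2.25.0, deepTools 2.4.1 and HOMER 4.10. The gene counter, its annotation and its use of strand are not given in the sources used here. The authors deposited a single table of 2652 genes. Its per-library values were taken as RPKM calculated by the authors, since with GENCODE M21 exon lengths they gave whole reads (within 0.02) in all libraries for 2147 of 2551 genes with a matching symbol (84.2%). The other 505 genes, Crkl among them, were given the shortest length that gave whole reads, so their read numbers are less certain. Low read numbers were odd in only 17.9% to 36.4% of cases, so the mates of a pair may have been counted separately and reads are not independent molecules. The authors also deposited their own comparison of the groups, as a log2 fold change and a p-value per gene, and neither was used.

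The members and gene lists were chosen with earlier results of these data known. The 7 members, the table gene nearest to each and the listed genes of the lists were named. limma 3.58.1 (R 4.3.3) was fitted on log2(RPKM + 1) with a trend, and limma voom on recovered reads scaled by the median of ratios, each over all 2652 genes with Benjamini-Hochberg adjustment, two-sided, at a threshold of 0.05. Scripts were tested on simulated data. The alternatives were other pseudocounts, filters and scalings, a replicate block and leaving out each library. With 2 or more transcripts, the APPRIS principal transcript was used, the longest among equals. The planned protein identity between paralogs was not run.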

Additional observations from a re-analysis of the deposited data

How the results depend on the processing

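All 7 genes were past the threshold against input (limma) under every alternative except centring on the table median, where 6 were (5 higher and 1 lower), and quantile normalization, where 1 was. In these settings 1044 genes of the table were called higher and 1119 lower, and 170 higher and 152 lower, respectively. The direction against input was set by the choice of the table, and centring and quantile normalization remove the shift of the whole table, so neither bears on it. The median log2 fold change of the 7, 2.59 as reported, was 3.38 and 1.48 with pseudocounts of 0.1 and 5, 0.83 after centring, -0.17 after quantile normalization and 3.59 with voom on library totals, and it ranged from 2.48 (without input replicate 3) to 2.64 when a library was left out. After centring Stat5a was at -0.36, and after quantile normalization Jak3 was at -0.31, Stat3 at -0.24, Stat5a at -0.17, Crkl at -0.14 and Ptpn11 at -0.41. Relative to the table, the number past the threshold was 1 under every alternative on the scaling, filter and block (Syk in place of Ptpn11 in the fit on centred log2(RPKM + 0.1)) and ranged from 0 (without input replicate 1 or 2) to 1 when a library was left out. There Syk was at -0.032 under scaling by the sum of reads, and Stat5a was between -0.45 and 0.059 when a library was left out. Replicate numbers are shared by the groups, and the methods describe input and pull-down as portions of a lysate, but no label says that a number marks a lysate. Deviations of same-numbered libraries from their group means correlated at -0.019, -0.019 and 0.078, and only the METTL3-RIP library of replicate 3 correlated best with its own number. As input values rest on few reads, these correlations cannot decide whether the numbers are pairs. The main fits left them unpaired, with the block as an alternative. With the replicate block, 2643 genes of the table passed against input (2650 without it) with 7 of the 7 and a median of 2.59, and Ptpn11 was at -0.51 relative to the table (adjusted p = 0.035, limma), the only 1 of the 7 past the threshold. Repeated runs of 100 bases instead of 31, chosen after seeing the data, are given in the text.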
